A study of Saccharomyces cerevisiae with 6 samples.

Results

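The genes described here encode the subunits of the nuclear RNA polymerases of budding yeast, RNA polymerases I, II and III. They were taken by name: every gene with 1 listed symbol made of RPA, RPB or RPC and a number, together with RPO21, RPO26, RPO31 and RET1. The rule gave 31 genes, read by 37 probe sets, of 5656 genes with at least 1 probe set listed for that gene alone. The mitochondrial polymerase gene RPO41 was left out. All 31 passed the filter on low signals, among 5380 genes tested. Named by the subunits they hold, Pol I was covered by 14 genes, Pol II by 12 and Pol III by 17. Of the 31 genes, 7 belong to Pol I only, 7 to Pol II only and 10 to Pol III only, while 2 are shared by Pol I and Pol III and 5 by all 3 enzymes.

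Pol I makes the precursor of the large ribosomal RNAs, Pol III makes 5S ribosomal RNA, the transfer RNAs and a few other small RNAs, and Pol II makes messenger RNAs and most small nuclear and nucleolar RNAs. The enzymes share a plan. A pair of large subunits forms the active centre, an assembly platform and a set of small shared subunits hold it together, and a stalk, a cleavage subunit and peripheral pairs give each enzyme its own functions. Genes for Pol I and Pol III are known for being transcribed together with those of ribosome assembly, in step with growth.

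Messenger RNA was measured on Affymetrix arrays in Saccharomyces cerevisiae, with 3 arrays from cells whose histone H3 carries arginine in place of lysines 4 and 79, called K4,79R, and 3 arrays from the wild-type strain. Both strains were grown in rich glucose medium to mid-logarithmic phase, at an optical density of 0.5 to 0.7. Lysine 4 is methylated by Set1 and lysine 79 by Dot1 in wild-type chromatin, and both marks are found over genes that Pol II transcribes. The labels give no further genotype and do not say whether the arrays of a group came from separate cultures, so p-values reflect no more than the variation among these samples, technical or not. The comparison asked which genes differ in mRNA level between the mutant and the wild type.

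Values are the array signals as deposited, on a linear scale. Changes are given as log2 of K4,79R over wild type, computed after adding an offset of 3.605 to each signal, with a standard error (SE) and a p-value from limma adjusted over all 5380 genes. A gene was called where the adjusted p was under 0.05. Precision is limited by the number of arrays, and signals of different probe sets are not compared with each other. Median signals were 31.8 to 42.9 on the K4,79R arrays and 34.1 to 36.8 on the wild-type arrays. K4,79R array 1 stood apart. ACT1, the actin gene, has control probe sets at both ends that report on RNA integrity, and its ratio of 3′ to 5′ signal there was 1.00, against 1.55 and 1.498 on K4,79R arrays 2 and 3 and 1.58 to 1.64 in wild type. The same ratio for SPT15, which encodes the TATA-binding protein used by all 3 polymerases, was 5.71 on K4,79R array 1, 2.79 and 3.35 on K4,79R arrays 2 and 3, and 5.02 to 6.15 in wild type, so for SPT15 it was K4,79R arrays 2 and 3 that lay outside the wild-type range.

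None of the 31 polymerase genes was called in limma, against 4.26% of all genes tested (229 of 5380), 2.81% of them higher and 1.45% lower. At an unadjusted p under 0.05 there were 8 of 31, or 25.8%, against 22.2% of all genes, so the polymerase genes stood near the background on both counts. The K4,79R and wild-type arrays did not overlap for 9 of the 31, or 29.0%, against 28.8% of all genes. Of these 9, 7 had all K4,79R values below the wild-type values, as had 12.2% of all genes, and 2 had them above, as had 16.7% of all genes. The median log2 change over the 31 genes was -0.11, beside 0.04 over all genes tested, and 21 of the 31 lay below the median of all genes.

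The changes were small and bounded. No polymerase gene reached a 2-fold difference, and for 30 of the 31 the 95% interval of the log2 change lay inside a 2-fold change in either direction. The exception was RPO26. Half-widths of these intervals were between 0.22 and 0.67, with a median of 0.35, so smaller differences could not be told from 0 for many of the genes. A call needed a larger change still, since the p-values were adjusted over all genes. The intervals of 8 genes left out 0, among them RPC53 (-0.46), RPB7 (-0.44) and RPO26 (-0.62), and none of these was called. The plot of signals by array shows the spread behind them.

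**Figure D1:**
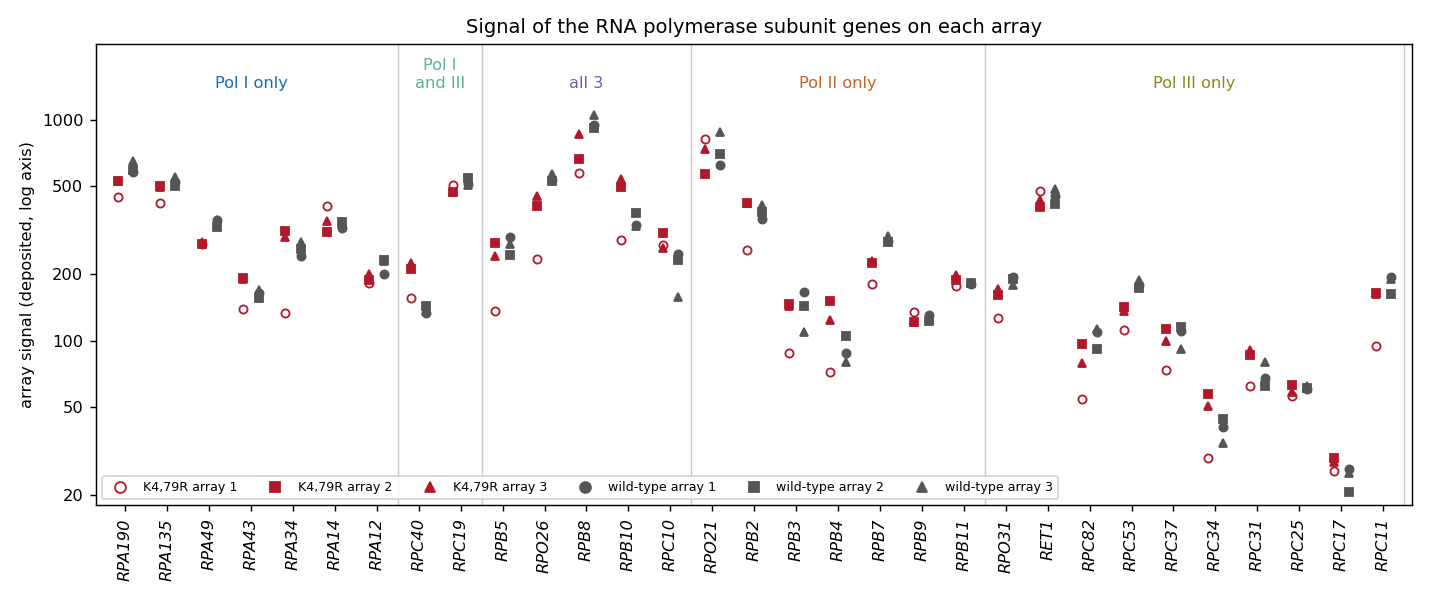
Deposited array signal (log axis) of the 31 polymerase subunit genes, with the 3 K4,79R arrays left of the 3 wild-type arrays for each gene and genes grouped by the enzymes that hold them. K4,79R array 1 (open circles) is the lowest of the K4,79R arrays for 24 of the 31 genes (77.4%), against 64.6% of all genes tested.

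The catalytic cores were read first. RPA190 (YOR341W), which encodes the largest Pol I subunit, had signals of 449, 529 and 526 on K4,79R arrays 1, 2 and 3, against 578, 591 and 651 in wild type. Every mutant value lay below every wild-type value, with a log2 change of -0.28 ± 0.11 (SE) and an adjusted p of 0.199 in limma. RPA135 (YPR010C), its partner across the Pol I active centre, had 419, 501 and 498 in K4,79R, against 523, 499 and 552 in wild type. Those groups overlapped, at -0.15 ± 0.11.

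RPO21 (YDL140C) encodes the largest Pol II subunit, whose tail of repeats is phosphorylated through the transcription cycle. Its signals were 821, 571 and 736 in K4,79R, against 627, 698 and 879 in wild type. The groups spanned almost the same range, at -0.05 ± 0.17. RPB2 (YOR151C), for the second largest Pol II subunit, had 257, 420 and 418 in K4,79R, against 356, 382 and 412 in wild type. Here K4,79R array 1 was low and the other mutant arrays were above all wild-type values, for a log2 change of -0.10 ± 0.19.

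For Pol III, RPO31 (YOR116C) encodes the largest subunit. It read 127, 161 and 171 in K4,79R, against 193, 190 and 179 in wild type. The groups did not overlap, at -0.30 ± 0.13 and an adjusted p of 0.237 in limma. RET1 (YOR207C), for the second largest Pol III subunit, had 475, 403 and 434 in K4,79R, against 452, 414 and 484 in wild type, with a log2 change of -0.04 ± 0.11. All 6 core genes thus had a negative log2 change as deposited, against 45.1% of all genes, with a median of -0.13. Leaving out single arrays turned the sign of RPO21, RPB2 and RET1.

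The genes shared by all 3 enzymes held the widest range of changes of any class. RPO26 (YPR187W) encodes Rpb6, a subunit of all 3 enzymes. It read 236, 407 and 452 in K4,79R, against 532, 529 and 568 in wild type. All mutant values were below the wild-type values, and array 1 was far below the other mutant arrays. The log2 change of -0.62 ± 0.22, a signal ratio of 0.650 with a 95% interval of 0.455 to 0.927, was the lowest of the 31 and lay at percentile 2.27 of all genes tested (limma adjusted p = 0.158).

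RPB8 (YOR224C), for another small subunit of all 3 enzymes, had 571, 665 and 865 in K4,79R, against 942, 921 and 1055 in wild type. Its groups did not overlap, at -0.49 ± 0.16 with an adjusted p of 0.126 in limma. RPB5 (YBR154C), for the jaw subunit, had 136, 276 and 242 in K4,79R, against 294, 245 and 274 in wild type. Its log2 change of -0.36 ± 0.24 came with K4,79R array 1 at 0.502 of the wild-type mean and array 2 at 1.02 of it.

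The zinc-binding shared subunits lay on the other side. RPC10 (YHR143W-A), which encodes Rpb12, had 271, 307 and 262 in K4,79R, against 247, 231 and 157 in wild type. Every mutant value was above every wild-type value, at 0.42 ± 0.18 with an adjusted p of 0.213 in limma. RPB10 (YOR210W) had 287, 498 and 540 in K4,79R, against 333, 377 and 332 in wild type. Arrays 2 and 3 of the mutant were above and array 1 was below all wild-type values, so that the log2 change of 0.29 ± 0.22 mixed both.

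Pol I and Pol III share an assembly platform of AC40 and AC19. RPC40 (YPR110C), for AC40, read 155, 210 and 224 in K4,79R, against 134, 144 and 136 in wild type. This was the largest positive change of the 31, at 0.48 ± 0.15, a signal ratio of 1.40 with a 95% interval of 1.10 to 1.78 (limma adjusted p = 0.111). The groups did not overlap. RPC19 (YNL113W), for its partner AC19, had 507, 472 and 473 in K4,79R, against 514, 546 and 506 in wild type, at -0.11 ± 0.10. In Pol II the same place is taken by Rpb3 and Rpb11. RPB3 (YIL021W) had a log2 change of -0.16 ± 0.23 and RPB11 (YOL005C) one of 0.04 ± 0.10, with signals of 176 to 198 in K4,79R and 181 to 182 in wild type for the second.

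**Figure D2:**
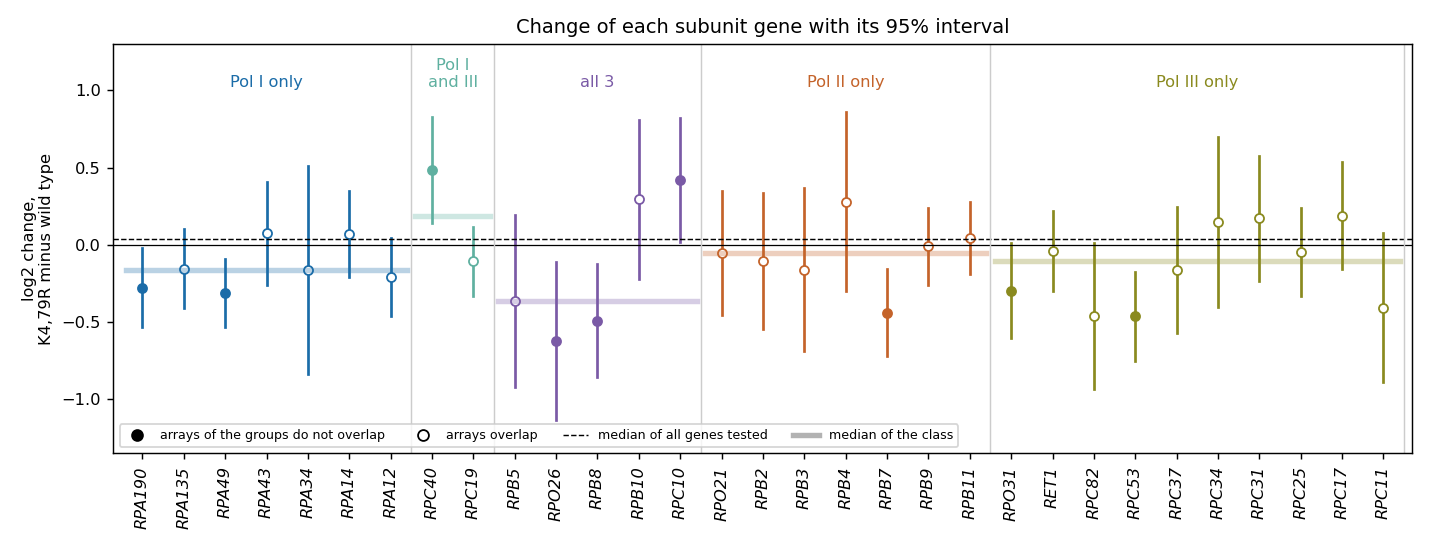
Log2 change of each subunit gene (K4,79R minus wild type, with offset) as a point with its 95% interval, grouped by enzyme; filled points mark genes whose K4,79R and wild-type arrays do not overlap. The 9 filled points lie on both sides of the dashed median of all genes (0.04), and RPO26 (-0.62) and RPC40 (0.48) are the extremes.

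Each enzyme carries a stalk of a pair of subunits that contacts initiation factors and the emerging RNA. RPB7 (YDR404C), of the Pol II stalk, read 180, 225 and 230 in K4,79R, against 283, 280 and 299 in wild type. All mutant values were below all wild-type values, at -0.44 ± 0.12 with an adjusted p of 0.0889 in limma. Its partner RPB4 (YJL140W) had 72.1, 151 and 124 in K4,79R, against 88.4, 105 and 80.0 in wild type, at 0.28 ± 0.25. The genes of this pair therefore had log2 changes of opposite sign, and the arrays of RPB4 overlapped.

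In the Pol I stalk, RPA43 (YOR340C), whose product binds the initiation factor Rrn3, had 139, 192 and 190 in K4,79R, against 164, 156 and 170 in wild type. Its log2 change was 0.08 ± 0.14, and RPA14 (YDR156W), for the other Pol I stalk subunit, was at 0.07 ± 0.12. For Pol III, RPC17 (YJL011C) had 25.6, 29.4 and 28.3 in K4,79R, against 26.2, 20.8 and 25.1 in wild type. Its change was 0.19 ± 0.15 and that of RPC25 (YKL144C), for the other subunit of that stalk, was -0.05 ± 0.12. The median over all 6 stalk genes was 0.07.

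Pol I and Pol III each have a built-in pair of subunits that resembles the Pol II factor TFIIF. RPC53 (YDL150W) of Pol III read 112, 142 and 136 in K4,79R, against 178, 173 and 188 in wild type. The groups did not overlap, and its log2 change of -0.46 ± 0.13 had the lowest adjusted p of the 31 genes, 0.0831 in limma. RPC37 (YKR025W), its partner in Pol III termination and reinitiation, had 73.6, 113 and 100 in K4,79R, against 111, 116 and 92.1 in wild type, at -0.16 ± 0.18.

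RPA49 (YNL248C), of the Pol I pair, read 274, 273 and 281 in K4,79R, against 352, 327 and 352 in wild type. The mutant arrays lay close together and below the wild-type arrays, at -0.31 ± 0.10 with an adjusted p of 0.106 in limma. RPA34 (YJL148W), its partner, had 133, 315 and 295 in K4,79R, against 242, 259 and 281 in wild type. There array 1 was below and arrays 2 and 3 were above all wild-type values, so the log2 change of -0.16 ± 0.29 describes none of the arrays. The 4 genes of both pairs had a median of -0.24.

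The remaining Pol III genes encode the heterotrimer that opens promoters and the subunit for RNA cleavage. RPC82 (YPR190C) had 54.3, 96.9 and 79.0 in K4,79R, against 109, 91.7 and 113 in wild type, at -0.46 ± 0.21. RPC34 (YNR003C), whose product contacts the factor Brf1, had 29.5, 57.6 and 50.5 in K4,79R, against 40.6, 44.3 and 34.5 in wild type, at 0.15 ± 0.24. RPC31 (YNL151C) was at 0.17 ± 0.18. All 3 heterotrimer genes overlapped between the groups.

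Genes for the subunits of transcript cleavage and fidelity had negative log2 changes of unlike size with all arrays. That of RPB9 was near 0 and turned sign in 3 of the 17 alternatives. RPC11 (YDR045C) of Pol III had 95.1, 164 and 163 in K4,79R, against 194, 163 and 191 in wild type, at -0.41 ± 0.21. RPA12 (YJR063W) of Pol I was at -0.21 ± 0.11 and RPB9 (YGL070C) of Pol II at -0.01 ± 0.11. RPB9 also had one of the tighter sets of values, 136, 122 and 121 in K4,79R, against 131, 123 and 127 in wild type.

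Grouped by enzyme, the median log2 change was -0.16 over the 7 genes of Pol I only, -0.05 over the 7 of Pol II only and -0.10 over the 10 of Pol III only. It was 0.19 for the 2 genes shared by Pol I and Pol III and -0.36 for the 5 shared by all 3 enzymes. Counting shared subunits with each enzyme, the medians were -0.16 for Pol I (14 genes), -0.08 for Pol II (12 genes) and -0.11 for Pol III (17 genes). Without K4,79R array 1 the medians were -0.07 for Pol I only, 0.08 for Pol II only, -0.06 for Pol III only, 0.25 for the genes shared by Pol I and Pol III and -0.06 for those shared by all 3, beside 0.12 over all genes. The Pol II-only median was also above 0, at 0.01, without K4,79R array 2. With all arrays no class held a called gene, and each held log2 changes of both signs. The range within the Pol III genes, from -0.46 to 0.19, was wider than the distance between the medians of the enzymes, and no test of a difference between enzymes was made.

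K4,79R array 1 was the lowest array for most polymerase genes. Its signal was below all wild-type arrays for 22 of the 31 genes, or 71.0%, against 45.9% of all genes tested. The same was true of array 2 for 13 genes and of array 3 for 14, against 23.5% of all genes on each. Relative to the wild-type mean, the median deviation of the 31 genes was -0.32 on the log2 scale on array 1 and -0.06 on each of arrays 2 and 3, beside -0.11, 0.14 and 0.10 over all genes. The 5 genes shared by all 3 enzymes had a median deviation of -0.76 on array 1, 0.03 on array 2 and -0.15 on array 3. All these values are as deposited. They include a constant of 0.922 on K4,79R array 1, 1.09 on array 2 and 1.11 on array 3, where wild type has 1. A constant under 1 lowers every gene of array 1, and those over 1 raise arrays 2 and 3. Deviations with the constants divided out were not computed.

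**Figure D3:**
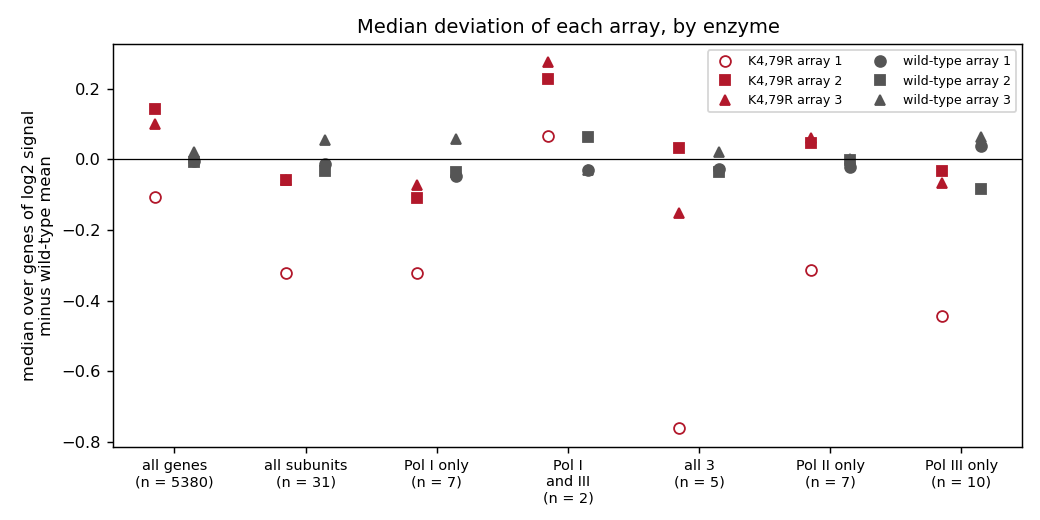
Median over genes of the log2 signal minus the wild-type mean of each gene, for each array, over all genes tested, all 31 subunit genes and each class. K4,79R array 1 (open circles) is the lowest array in every column except that of the 2 genes shared by Pol I and Pol III, and lies at -0.76 for the 5 genes shared by all 3 enzymes. Signals are as deposited, so the constants of the K4,79R arrays are included.

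The spread between arrays was also unequal. On the log2 scale the median SD of the 31 genes was 0.26 over the K4,79R arrays and 0.10 over the wild-type arrays, beside 0.21 and 0.13 over all genes. The K4,79R SD was the larger for 27 of the 31 genes, or 87.1%, against 69.8% of all genes. These SDs include the constants of the K4,79R arrays, 0.922, 1.09 and 1.11 on arrays 1, 2 and 3, where those of wild type are 1. The low 3′ to 5′ ratio of ACT1 moves with array 1. What part the constants or that ratio have in these values was not tested. The SPT15 ratio of that array lay inside the wild-type range.

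Without K4,79R array 1, 7 of the 31 genes were called in limma, or 22.6%, where 20.9% of all genes were called. RPC40 (log2 change 0.64), RPB4 (0.58) and RPB10 (0.58) were called as higher, where 16.1% of all genes were. RPB7 (-0.33), RPA49 (-0.31), RPO26 (-0.34) and RPC53 (-0.36) were called as lower, where 4.83% of all genes were. The change of RPO26 was nearer 0 than with all arrays, while those of RPC40, RPB4 and RPB10 were further from it. The median over the 31 genes was then -0.06, beside 0.12 over all genes. The mutant arrays kept in this fit carry constants of 1.09 and 1.11, against 1 in wild type, which raise every log2 change. It was not run with the constants divided out. The 7 genes were spread over the enzymes, with no class holding more than 2 of them.

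**Figure D4:**
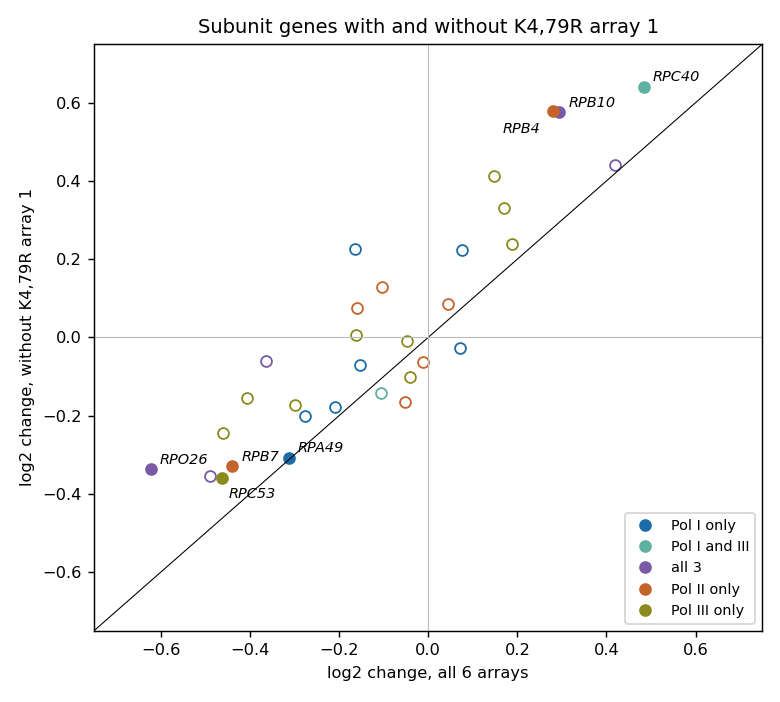
Log2 change of the 31 subunit genes without K4,79R array 1 (vertical axis) against the change with all 6 arrays (horizontal axis), with the line of equality. Filled and named points are the 7 genes with an adjusted p under 0.05 without that array, 3 above and 4 below 0.

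Scaling between arrays mattered as well, since the deposited K4,79R values carry a further constant for each array. With these constants divided out, with a common median and with quantile normalization, RPB7, RPO26 and RPC53 were called as lower, and with quantile normalization also RPB8 (log2 change -0.56). None was called as higher under these scalings, where 3.4%, 2.9% and 3.36% of all genes were. The share of all genes called as lower was then 3.05%, 3.75% and 3.48%, against 1.45% as deposited. These scalings put the median of all genes at -0.01, -0.06 and -0.03, and the median of the 31 genes at -0.16, -0.21 and -0.16. The 31 genes thus kept a median below that of all genes by a similar distance.

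RPA190 had 7 probe sets, the other 30 genes 1 each. The brightest was used above. Of the 6 that passed the filter, all had a negative log2 change, and none was called in a fit of all probe sets, where 3.09% were called. The others with signals over 50 were at -0.22 ± 0.20 and -0.04 ± 0.15. None of the probe sets used for the 31 genes carries a name suffix that marks shared probes.

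The 31 genes lie on 10 chromosomes and mostly apart. RPA43 and RPA190 are direct neighbours in the RefSeq gene order, with log2 changes of 0.08 and -0.28. RET1 and RPB10 on chromosome XV have 2 protein-coding genes between them, with changes of -0.04 and 0.29. RPO26 and RPC82 on chromosome XVI are also separated by 2 genes and had changes of -0.62 and -0.46. One such pair thus had similar changes and both others did not.

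Genes for factors that work with the polymerases were counted against the same background, 2.81% of all genes called as higher and 1.45% as lower. Of 11 tested genes for Pol III factors, TFC3 was called as higher. It encodes the subunit of TFIIIC that contacts the internal promoter of tRNA genes, and rose to 49.4, 63.3 and 47.0 in K4,79R, against 27.0, 29.6 and 32.3 in wild type (log2 change 0.77 ± 0.16, limma adjusted p = 0.0426). This call was lost in 5 of 6 fits that left out 1 array and held only without K4,79R array 1 (log2 change 0.81), with adjusted p-values of 0.0990 to 0.182 in the other 5 limma fits. Of 13 genes for Pol II elongation and termination, ELF1 was called as lower. Its product travels with elongating Pol II. It fell to 307, 416 and 383 in K4,79R, against 603, 595 and 690 in wild type (log2 change -0.77 ± 0.14, limma adjusted p = 0.0252), and was called only without K4,79R array 1 or 2 among the 6 fits without 1 array (-0.65 and -0.86).

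None was called among 11 genes for Pol I factors, 13 for kinases and phosphatases of the Pol II tail, 8 for assembly and nuclear import and 2 for the mitochondrial polymerase. In these lists 2, 1, 1 and 0 genes had an unadjusted p under 0.05 in limma, as had 22.2% of all genes. A pair of Pol I genes was picked out after their values were seen. HMO1, an HMG-box protein of ribosomal DNA, read 215, 333 and 390 in K4,79R, against 546, 492 and 561 in wild type, at -0.80 ± 0.20 with an adjusted p of 0.0711 in limma. RRN3, whose product brings Pol I to its promoter, had 91.8, 124 and 113 in K4,79R, against 87.9, 79.8 and 58.5 in wild type, at 0.53 ± 0.18. HMO1 was called as lower with quantile normalization (-0.87), a common median (-0.90), the constants divided out (-0.85) and without K4,79R array 1 (-0.56). RRN3 was called as higher without K4,79R array 1 (0.65). RPO41, the mitochondrial enzyme, was at -0.05 ± 0.20.

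The arrays also carry probe sets for RNAs that Pol I and Pol III make, and these were examined after the values of the polymerase genes were known. The labels do not say how the cRNA was primed, so how stable RNAs without a poly(A) tail enter these signals is not given. RDN5-3, a gene for 5S ribosomal RNA, rose to 747, 702 and 513 in K4,79R, against 262, 233 and 250 in wild type. This 2.58-fold change (log2 1.37 ± 0.15, limma adjusted p = 0.00467) was called in all 16 alternatives that could measure it. RDN5-1, another 5S gene, rose to 4085, 3233 and 2967 in K4,79R, against 2019, 1930 and 1993 in wild type (log2 change 0.78 ± 0.15, limma adjusted p = 0.0284). That call was lost with a common median (0.68), with the constants divided out (0.73) and in 5 of 6 fits without 1 array, all but that without K4,79R array 1. Another RDN5-1 probe set read 1812, 1577 and 1354 in K4,79R, against 750, 624 and 675 in wild type. Its name has a suffix that marks shared probes. With controls and all probe sets fitted jointly, its log2 change was 1.20 ± 0.14 (limma adjusted p = 0.00918).

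Of the Pol I products, RDN25-1 rose to 1714, 2162 and 1571 in K4,79R, against 1179, 784 and 1003 in wild type (log2 change 0.88 ± 0.18, limma adjusted p = 0.0393). A second probe set of RDN25-1 read 15.8, 34.1 and 22.7 in K4,79R, against 44.5, 31.4 and 24.3 in wild type, with the opposite sign, and the call held only without K4,79R array 1 (log2 change 0.92) among the 6 fits without 1 array. It was also lost with the mean of probe sets (log2 change 0.23) and without the intensity trend (limma adjusted p = 0.0507). RDN37-1, the whole precursor, was at 0.45 ± 0.21 and RDN18-1 at -0.15 ± 0.18 on signals of 8.4 to 13.3, neither of them called. The probe set names used for RDN25-1, RDN37-1 and RDN18-1 carry a letter that marks probes shared between transcripts, so copies of the repeat cannot be told apart there. Those used for RDN5-1 and RDN5-3 carry a different letter, i, and whether they tell copies apart was not tested.

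Transfer RNA genes, transcribed by Pol III, stood lower. Of 87 tested, 8 fell and none rose in limma, or 9.2% called as lower against 1.45% of all genes. A negative log2 change was found for 79 of the 87, against 45.1% of all genes. Their median was -0.31, beside 0.04 over all genes. SUP16 fell to 58.1, 57.3 and 74.5 in K4,79R, against 111, 94.9 and 106 in wild type, and SUP19 to 78.5, 72.3 and 64.9, against 130, 104 and 113. SUF1 (-0.82 ± 0.15) and SUF6 (-0.83 ± 0.16) were among the 8. All 8 calls were lost when any 1 array other than K4,79R array 1 was left out. Without that array 26 of the 87 were called as lower, where 4.83% of all genes were, so calls rose over all genes as well.

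Among the wild-type arrays the tRNA genes themselves varied, with median deviations of 0.18, 0.07 and -0.27 on arrays 1, 2 and 3, against -0.26, -0.44 and -0.35 on K4,79R arrays 1, 2 and 3. The lowest wild-type array thus lay at about the level of the highest mutant array. For 85 of the 87 genes the probe set name marks shared probes. For comparison, 2 of 49 snoRNA genes, made mostly by Pol II, were called as lower, where 1.45% of all genes were. SNR13 (-0.75 ± 0.16) was called in 11 of 17 alternatives, among them 2 of 6 fits without 1 array. SNR128 (-0.53 ± 0.12, limma adjusted p = 0.0487) was called in 7 of 17 alternatives, among them 1 of those 6 fits. The snoRNA median of -0.01 was near that of all genes.

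**Figure D5:**
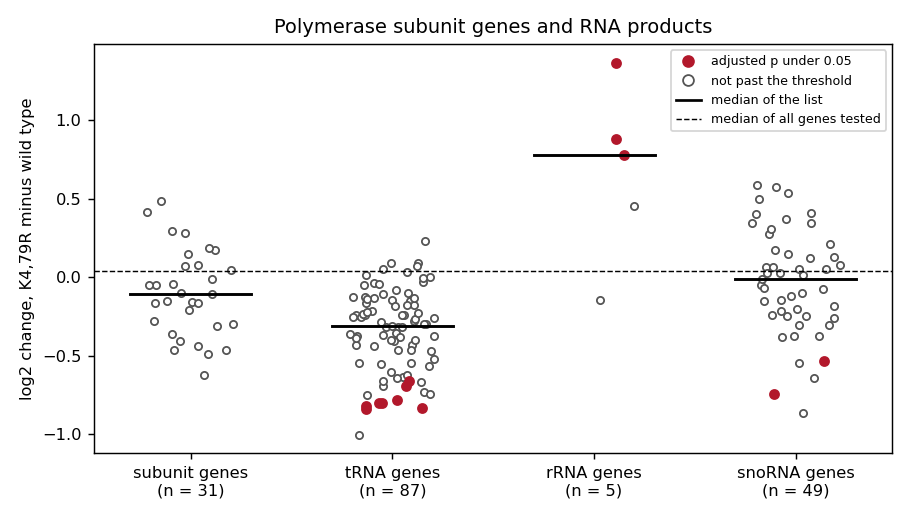
Log2 change (K4,79R minus wild type) of each polymerase subunit gene, tRNA gene, rRNA gene and snoRNA gene tested, with horizontal bars at the median of each list and filled points for genes with an adjusted p under 0.05. The 87 tRNA genes centre on -0.31, and no subunit gene is filled. The 5 rRNA genes plotted include RDN37-1 (0.45), and 3 of them, RDN5-3, RDN25-1 and RDN5-1, lie above 0.7.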

How the data were processed

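Total RNA from 3 K4,79R and 3 wild-type samples was hybridised, about 20 micrograms each, per the labels' protocols. The deposited values are intensity on a linear scale, made with MAS5 per the submitters' processing notes. Other upstream settings are not given in the sources used here. From the values, the K4,79R arrays carry a further constant of 0.922, 1.09 and 1.11, whose basis is not given. Of 9335 probe sets, 60 controls were left out. The other 9275 had 1 gene (6504), several (328) or none (2443), and symbols came from the platform table and RefSeq R64. Probe sets in the lowest 20% by mean signal were dropped, and a gene with several probe sets was read from the brightest, leaving 5380 genes. Tests used limma 3.58.1 in R 4.3.3 (lmFit, eBayes with intensity trend, two-sided, Benjamini-Hochberg). With 3 arrays a group the smallest p of an exact permutation test is 0.1, so no such test was made. The fit was also run on simulated data with equal spread in both groups and no outlying array, which differs from the unequal spread of these arrays.

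All 31 subunits are named. By rule, values in every array are given for subunits called or without overlap, the 2 largest of each enzyme and the extremes of each class, and called genes of related lists are named. Other values by array, and HMO1, RRN3 and the RNA products, were added after values were seen. The members and lists were chosen with earlier results of these data known. Alternatives changed the offset, filter, scaling, probe set, trend, block or arrays.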

Additional observations from a re-analysis of the deposited data

Results flagged for a closer look

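The arrays hold 10 control probe sets for 18S and 25S ribosomal RNA, the products of Pol I, which were outside the genes tested. On 6 of them all K4,79R values were above all wild-type values, as for 16.7% of all genes tested, and on none were they all below, as for 12.2% of all genes. Fitted together with all probe sets, 1 of the 10 was called in limma, against 3.09% of all probe sets. It was 18S segment a. It read 207, 336 and 236 in K4,79R, a mean of 260, against 79.5, 74.4 and 81.3 in wild type, a 3.15-fold difference (log2 1.65 ± 0.18, limma adjusted p = 0.00717).

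The other 5 did not pass the test. 18S segment b averaged 144 in K4,79R and 87.1 in wild type. 25S segment b averaged 40.4 in K4,79R and 25.4 in wild type, 25S segment c averaged 10.1 in K4,79R and 6.50 in wild type, and 25S segment d averaged 39.2 in K4,79R and 24.5 in wild type. 25S segment e averaged 1840 in K4,79R and 1204 in wild type. The 5 adjusted p-values in limma were between 0.0694 and 0.215. 18S segments c, d and e and 25S segment a overlapped between the groups. Groups of 3 arrays are too small for a test of single outlying arrays.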

How the results depend on the processing

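The 17 alternatives were run for each of the 31 genes, 527 values in all, of which 492 kept their direction and their side of the threshold. The count of called genes was 0 as reported, 3 with the constants divided out, 3 with a common median and 4 with quantile normalization, all of them lower, and 0 to 7 when 1 array was left out, with 0 to 3 higher and 0 to 4 lower. K4,79R array 1 was the only array whose removal gave calls. The common median moved the median of the 2 genes shared by Pol I and III to 0.088, and leaving out 1 array moved that of the 5 genes shared by all enzymes to between -0.47 and -0.060. Offset, filter, trend and choice of probe set moved none of these counts.

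The sign turned for 11 subunit genes, all with changes of at most 0.16 in size with all arrays. With a common median RPA43 was at -0.025, RPA14 at -0.030 and RPB11 at -0.056, and with the constants divided out RPB11 was at -0.0068. Leaving out 1 array gave ranges of -0.00375 to 0.22 for RPA43, -0.38 to 0.23 for RPA34, -0.028 to 0.16 for RPA14, -0.17 to 0.096 for RPO21, -0.22 to 0.13 for RPB2, -0.32 to 0.076 for RPB3, -0.063 to 0.017 for RPB9, -0.10 to 0.015 for RET1, -0.29 to 0.0069 for RPC37, -0.029 to 0.41 for RPC34 and -0.20 to 0.15 for RPO41. RPA34, RPA14, RPB2, RPB3 and RPC37 turned without K4,79R array 1 only, and RPA43 and RPC34 without K4,79R array 2 only.

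For tRNA genes called lower, the count of 8 became 14 with a common median, 5 without the intensity trend, 0 of the 2 left without shared-probe suffixes, and 0 to 26 without 1 array. The titles give the arrays of both groups the numbers 1 to 3. Deviations of same-numbered arrays correlated at -0.16, 0.06 and -0.04, and those of other-numbered arrays at -0.22 to 0.21. With 3 arrays a group these values cannot settle whether same-numbered arrays were handled together. With the replicate number as a block, 0 subunit genes and 0 tRNA genes were called, and the calls of TFC3, ELF1, RDN5-1, RDN25-1, SNR13 and SNR128 were lost, at limma adjusted p-values of 0.0724 (ELF1) to 0.121 (TFC3 and SNR128). SNR13 and SNR128 were also not called without the intensity trend (limma adjusted p = 0.0562 and 0.0695). The causes of these differences were not tested.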
